A study of Saccharomyces cerevisiae with 15 samples.

Results

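The mRNAs of 10 genes for stress transcription factors of the yeast Saccharomyces cerevisiae were followed, which were HSF1 (YGL073W), MSN2 (YMR037C), MSN4 (YKL062W), RPN4 (YDL020C), YAP1 (YML007W), SKN7 (YHR206W), HAA1 (YPR008W), WAR1 (YML076C), STP4 (YDL048C) and CIN5 (YOR028C). They were 10 of the 7127 genes in the deposited count table, and all 10 were among the 6069 genes that passed the filter on low counts. The genes were chosen by name, with earlier results of the same 15 libraries known, and which of their measured levels and changes entered the choice is not recorded. The calls below are therefore a description of these genes and no independent support for any pattern among them.

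Polyadenylated RNA was sequenced from 15 libraries of strain W303, in 5 groups of 3, all of which carried ZPR1-AID, an auxin-inducible degron on the C terminus of Zpr1. Zpr1 is a chaperone for the translation elongation factor eEF1A, and the auxin derivative 5-Ph-IAA directs a degron-tagged protein to the proteasome. The groups were ZPR1-AID cells without treatment at 0 h, ZPR1-AID cells exposed to 5-Ph-IAA during 0.5 h, 1.5 h or 3 h, and ZPR1-AID cells kept 3 h in DMSO, its solvent. Cells that lack the degron were not among the groups given 5-Ph-IAA, so the compound and the depletion cannot be told apart. DMSO was sampled at 3 h only, so at 0.5 h and 1.5 h solvent and time in culture cannot be told apart from the depletion. The degron acts on the protein, Zpr1 protein was not measured in these data, and the ZPR1 mRNA does not check the labels.

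Stress factors of this kind are mostly held ready in the cell and are switched on by changes to the protein, such as release from a chaperone, entry into the nucleus or escape from degradation. The mRNA level of a factor is therefore a different quantity from its activity, which is usually read from the genes it activates. Several of these factors also bind the promoters of each other's genes, and some of the genes, RPN4 among them, are known targets of other stress factors.

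The promoter of RPN4 is shown because it held 5 stretches that match the binding letters of other stress factors. RPN4 was also the only gene of the set called higher than untreated cells, at an adjusted p under 0.05, at every time of 5-Ph-IAA. The letters searched, on both strands of the 500 bases before each start codon, were TTC, GAA and TTC with NN between neighbours for the unbroken heat shock element bound by Hsf1, TTC, GAA and GAA with NN and then NNNNNNN between them for the gapped one, AGGGG for the stress response element bound by Msn2 and Msn4, TTACTAA for the Yap1 response element, GGTGGCAAA for the proteasome-associated control element bound by Rpn4, and TCCGNGGA for the element bound by Pdr1 and Pdr3. The sequences are RefSeq build R64, which is strain S288C and not W303, and are written 5′ to 3′ on the strand of the gene. Capitals mark the matched stretches, and N positions inside a match are included.
RPN4, 450 to 331 bases before the start codon, chrIV:417039-417158, minus strand: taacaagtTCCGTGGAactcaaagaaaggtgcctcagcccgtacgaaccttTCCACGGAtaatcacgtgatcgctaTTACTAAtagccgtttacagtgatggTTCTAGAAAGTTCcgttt
RPN4, 36 to 7 bases before the start codon, chrIV:416715-416744, minus strand: atcttTTCAAAAGTTTTCTAGAATTTTCaa
YAP1, 56 to 27 bases before the start codon, chrXIII:253792-253821, plus strand: agggaagtttTTTGCCACCcaaaacgttta
In the first RPN4 stretch, the capitals are, in order, a pair of Pdr1/Pdr3 elements, a Yap1 response element and an unbroken heat shock element. In the second, a gapped heat shock element overlaps another unbroken one, and the capitals cover both. The YAP1 stretch is shown because it held the proteasome-associated control element, read on the opposite strand.

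Of 6000 promoters of the same length, 1.48% held the unbroken heat shock element and 1.4% the gapped one, and of the 10 genes only RPN4 held either. The Pdr1/Pdr3 element was in 2.92% of promoters and only in RPN4 among the 10 genes. The proteasome-associated control element was in 1.65% of promoters and only in YAP1 among the 10 genes. The Yap1 response element was in 11.8% of promoters and in RPN4, SKN7 and HAA1, and the stress response element was in 34.1% of promoters and in YAP1, STP4 and CIN5. The CIN5 match lies 433 to 429 bases before its start codon. That is beyond the gap of 179 bases between CIN5 and YOR029W, the neighbouring gene on that side. These are matches of letters in a reference genome and were not tested for binding. All 10 genes have a single exon, and in the R64 annotation none overlaps another gene.

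The libraries held between 2530145 counts in replicate 2 of 5-Ph-IAA at 3 h and 21282576 counts in replicate 2 of DMSO, and no gene of the set had fewer than 110 counts in any library. Mitochondrially encoded genes took 0.786%, 4.62% and 0.0165% of the counts in replicates 1, 2 and 3 of 5-Ph-IAA at 3 h, against 0.162%, 0.102% and 0.0445% in DMSO. Replicate 3 of 5-Ph-IAA at 3 h stood apart from its group, with a Spearman correlation across genes of 0.969 and 0.954 with its own replicates and 0.984 with replicate 3 of DMSO. For the 10 genes, values without replicate 2 or 3 of 5-Ph-IAA at 3 h are given where a call changes. For the lists of related genes, counts with each library left out are given where they moved by more than 1.5 times. The labels do not say whether replicates came from separate cultures, so the p-values reflect the spread among these libraries, which may be technical. Counts of bulk RNA give each mRNA relative to all others, so fewer cells with an mRNA and less of it per cell cannot be told apart.

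**Figure D1:**
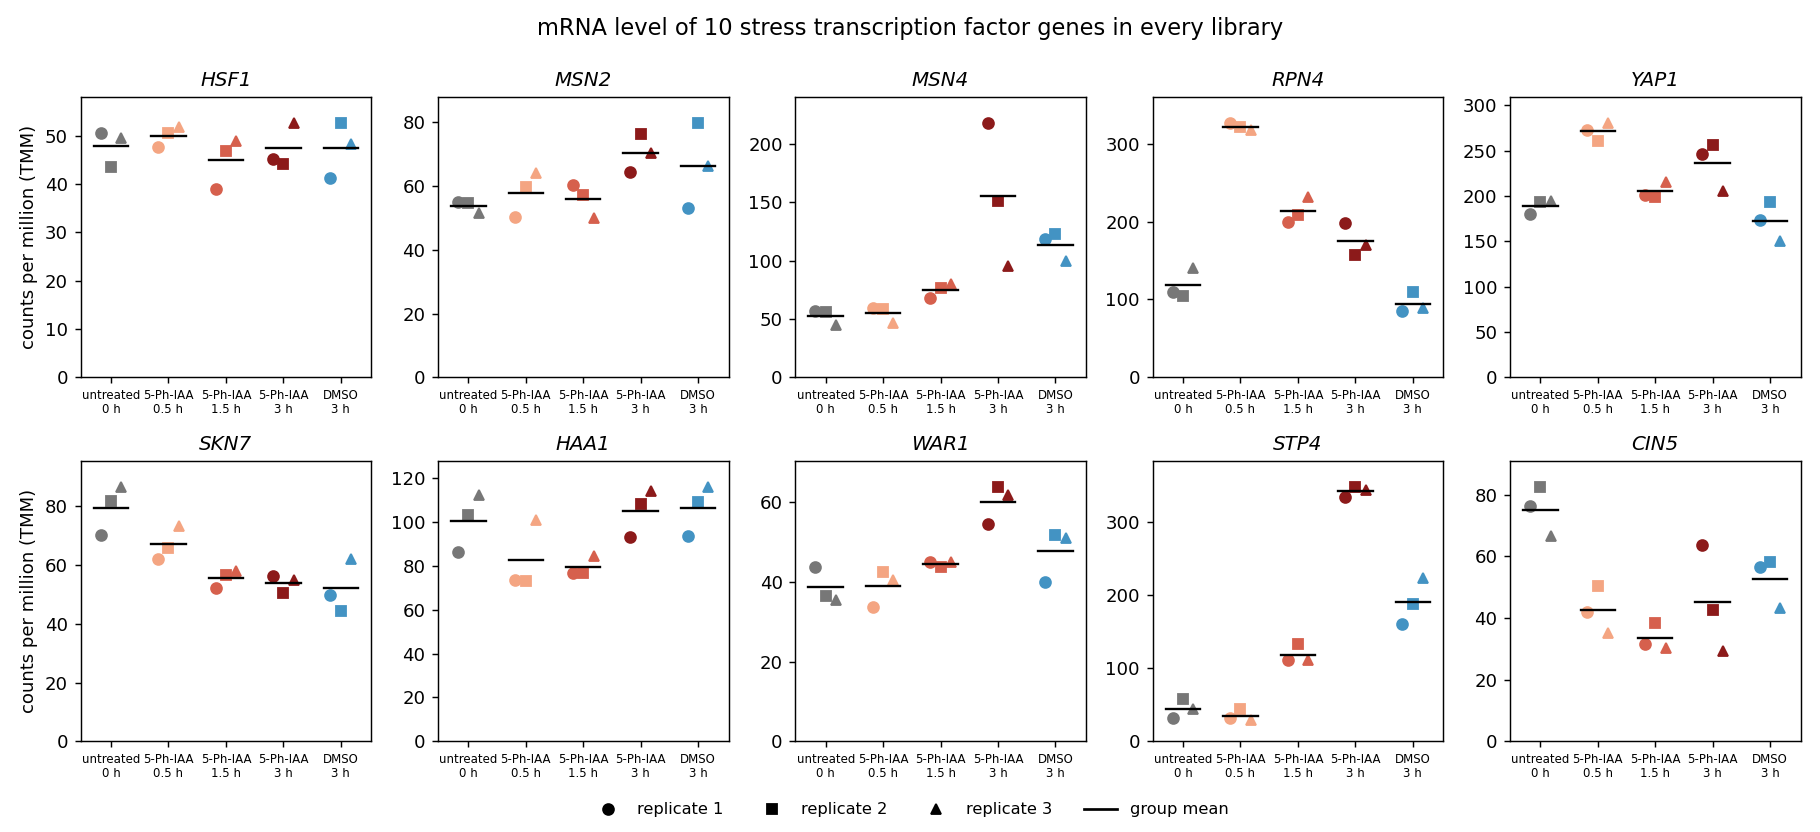
Level of each of the 10 genes in every library, in CPM (counts scaled to a common library total with TMM factors; each vertical axis starts at 0 and has its own range), by group along the horizontal axis. Circles, squares and triangles are replicates 1, 2 and 3 and bars are group means; RPN4 and YAP1 are highest at 0.5 h of 5-Ph-IAA, STP4 and MSN4 are highest at 3 h, and HSF1 stays between 39.0 and 52.7 CPM in all 15 libraries.

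RPN4 encodes the short-lived activator of the proteasome genes, which the proteasome itself degrades. Its level in CPM, counts scaled to a common library total, was 110, 104 and 140 in untreated cells, 327, 321 and 318 CPM at 0.5 h of 5-Ph-IAA, 200, 208 and 232 CPM at 1.5 h, 198, 157 and 170 CPM at 3 h, and 85.5, 110 and 88.4 CPM in DMSO. All 9 libraries with 5-Ph-IAA were above all 6 libraries without it, and the 3 times did not overlap each other. At 0.5 h RPN4 was 2.73 times the untreated level, a log2 change of 1.45 ± 0.14 (SE) with an adjusted p of 2.94e-06 by the quasi-likelihood test of edgeR with Benjamini-Hochberg adjustment over all tested genes. The log2 change against untreated cells was 0.85 ± 0.14 at 1.5 h (adjusted p = 0.000551) and 0.57 ± 0.14 at 3 h (adjusted p = 0.00311). Against DMSO, 5-Ph-IAA at 3 h gave 0.89 ± 0.14, which is 1.85-fold (adjusted p = 0.000639), and the change was 0.97 without replicate 2 of 5-Ph-IAA and 0.91 without replicate 3. DMSO cells were 0.32 ± 0.13 lower than untreated cells on the log2 scale, which did not pass (adjusted p = 0.0783) but passed without replicate 2 of DMSO (-0.44, adjusted p = 0.0244). The step between 0.5 h and 1.5 h, -0.59 ± 0.13, passed at an adjusted p of 0.0413, but in only 6 of 14 settings tried, and with any of the 6 libraries left out it did not pass (adjusted p between 0.0747 and 0.212).

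Rpn4 targets were taken as 32 proteasome subunit genes. At 0.5 h against untreated cells 25 of the 32 rose and 0 fell, where 3.36% of all tested genes were called higher, and the median log2 change was 0.52, beside -0.03 over all tested genes. DESeq2 called 30 higher. With a library left out the count was 7, 7 and 16 without replicates 1, 2 and 3 at 0.5 h and 7, 11 and 6 without replicates 1, 2 and 3 of the untreated cells, while the median stayed between 0.50 and 0.58. PRE3, a catalytic subunit of the core particle, averaged 406 ± 41.2 CPM at 0.5 h and 244 ± 8.58 CPM in untreated cells (SD, n = 3 each), a log2 change of 0.74 (adjusted p = 0.000821). RPN13, a ubiquitin receptor of the regulatory particle, had the largest p of the list, with a log2 change of 0.30 (adjusted p = 0.362). At 1.5 h 4 of 32 rose and 0 fell, beside 7.86% of all tested genes called higher, with a median of 0.27. That count was 9 by DESeq2, 17 with only the compared groups and 1 or 2 with any library left out. At 3 h against untreated cells 4 rose and 0 fell, beside 19.6% of all tested genes called higher, with a median of 0.16, and the count was 11 with total counts alone and 7 without replicate 2 of 5-Ph-IAA. For 5-Ph-IAA at 3 h against DMSO 2 of 32 rose and 0 fell, near the 5.07% of all tested genes called higher, with a median of 0.17 beside -0.02 over all tested genes. The count was 4 by DESeq2, 5 with same-numbered 3 h libraries as pairs (a replicate block), 0 with only the compared groups, 0 without replicate 1 of either 3 h group, 1 without replicate 2 of DMSO and 5 without its replicate 3. RPT1, an ATPase of the regulatory particle, was 0.51 higher than in DMSO on the log2 scale (adjusted p = 0.0144), which did not pass without replicate 1 of 5-Ph-IAA or of DMSO (adjusted p = 0.0567 and 0.0691), while RPT6, another of these ATPases, had a log2 change of 0.00 (adjusted p = 0.998). The RPN4 mRNA and its targets were thus both above untreated cells at 0.5 h, while at 3 h against DMSO RPN4 was 0.89 higher and the targets had a median change of 0.17.

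YAP1 encodes the bZIP activator of the oxidative stress response. It had 180, 193 and 195 CPM in untreated cells, 273, 261 and 281 CPM at 0.5 h of 5-Ph-IAA, 201, 199 and 216 CPM at 1.5 h, 246, 256 and 206 CPM at 3 h, and 174, 193 and 150 CPM in DMSO. The 0.5 h libraries were above all others, and the 1.5 h and 3 h libraries of 5-Ph-IAA were above those of DMSO and of untreated cells. At 0.5 h YAP1 was 1.43 times the untreated level, a log2 change of 0.52 ± 0.11 (adjusted p = 0.0108), which did not pass without replicate 1 of the untreated cells (0.48, adjusted p = 0.0586). At 1.5 h the change was 0.12 ± 0.11, which did not pass, with a 95% interval of -0.12 to 0.36. At 3 h the change was 0.32 ± 0.11 against untreated cells (adjusted p = 0.0384) and 0.45 ± 0.11 against DMSO (adjusted p = 0.0219). The difference from DMSO passed in 9 of 15 settings. It did not pass with total counts alone (adjusted p = 0.0666), with only the compared groups (adjusted p = 0.2), or without replicate 1 or 2 of 5-Ph-IAA or replicate 1 or 3 of DMSO (adjusted p between 0.0634 and 0.081). The difference from untreated cells at 3 h passed in 9 of 14 settings. It did not pass with only the compared groups (0.33, adjusted p = 0.0596), without replicate 1 or 2 of the untreated cells or without replicate 1 or 2 of 5-Ph-IAA (adjusted p between 0.0535 and 0.124 for the libraries left out). For 1.5 h against 0.5 h the log2 change was -0.40 ± 0.11 and did not pass (adjusted p = 0.119), but it passed by DESeq2 (-0.40, adjusted p = 0.0209) and with only the compared groups (-0.38, adjusted p = 0.0354), and in 0 of the other 12 settings.

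SKN7 encodes a response regulator that acts with Yap1 on oxidative stress genes and receives signals from the Sln1 osmosensor. Its levels were 70.0, 81.8 and 86.6 CPM in untreated cells, 61.9, 65.9 and 73.3 CPM at 0.5 h of 5-Ph-IAA, 52.2, 56.7 and 57.9 CPM at 1.5 h, 56.1, 50.4 and 54.8 CPM at 3 h, and 49.9, 44.3 and 61.9 CPM in DMSO. The untreated libraries were above all those at 1.5 h, 3 h and in DMSO, and both 3 h groups overlapped. SKN7 fell by 0.52 on the log2 scale at 1.5 h (SE 0.13, adjusted p = 0.0102), by 0.56 at 3 h (SE 0.13, adjusted p = 0.00237) and by 0.61 in DMSO (SE 0.12, adjusted p = 0.00121), each against untreated cells. The fall at 1.5 h did not pass without replicate 3 of the untreated cells or without replicate 1 at 1.5 h (adjusted p = 0.069 and 0.0645). Its change with 5-Ph-IAA against DMSO at 3 h was 0.05, with a 95% interval of -0.22 to 0.32.

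Of 16 listed targets of Yap1 and Skn7, 1 rose and 1 fell at 0.5 h against untreated cells, where 6.15% of all tested genes were called, with a median log2 change of 0.04. AHP1, a thioredoxin peroxidase, averaged 1580 ± 154 CPM at 0.5 h and 860 ± 40 CPM in untreated cells (SD, n = 3 each), a log2 change of 0.88 (adjusted p = 0.000445), while TSA1, the major cytosolic peroxiredoxin, had 0.03 (adjusted p = 0.943). The gene that fell was OYE3, an NADPH oxidoreductase, at -0.65, named after its values were seen, and 0 fell without replicate 2 or 3 at 0.5 h or without replicate 1 of the untreated cells. For 5-Ph-IAA at 3 h against DMSO 2 of 16 rose and 0 fell, beside 5.07% of all tested genes called higher, with a median of 0.10. ATR1, a multidrug transporter, was 0.80 higher on the log2 scale (adjusted p = 0.000397), and TRX2, a thioredoxin named after its values were seen, was 0.82 higher. YCF1, a vacuolar transporter of glutathione conjugates, had the largest p of the list at 0.03 (adjusted p = 0.933). With 5-Ph-IAA at 3 h against untreated cells, ATR1 was 0.32 higher (adjusted p = 0.034) and TRX2 had 0.26, which did not pass (adjusted p = 0.254). Without replicate 1, 2 or 3 of 5-Ph-IAA, ATR1 did not pass there either (adjusted p between 0.0518 and 0.0699). In DMSO against untreated cells 0 rose and 5 fell, beside 18.5% of all tested genes called lower, with a median of -0.20. Both ATR1 and TRX2 were among the 5 that fell. The number that fell was 1 with total counts alone, and 3 without replicate 1, 2 or 3 of the untreated cells or replicate 1 or 2 of DMSO.

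HSF1 encodes the essential heat shock factor, which the chaperone Hsp70 holds inactive and which unfolded proteins release. It had 50.5, 43.5 and 49.5 CPM in untreated cells, 47.7, 50.5 and 51.7 CPM at 0.5 h of 5-Ph-IAA, 39.0, 46.9 and 49.0 CPM at 1.5 h, 45.2, 44.2 and 52.7 CPM at 3 h, and 41.3, 52.7 and 48.2 CPM in DMSO. Every pair of neighbouring groups overlapped when the groups were put in order of their means. HSF1 passed in 0 of the 7 comparisons, and its log2 change was 0.06 at 0.5 h against untreated cells (95% interval -0.20 to 0.32) and 0.01 for 5-Ph-IAA at 3 h against DMSO (95% interval -0.26 to 0.27). At an unadjusted p under 0.05 the quasi-likelihood test of edgeR called HSF1 in 0 comparisons, and DESeq2 at an adjusted p under 0.05 in 0. Its highest group mean was 1.11 times its lowest, and among 5217 tested genes with a mean of at least 10 CPM its range of group means stood at percentile 2.6.

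All of the 22 listed Hsf1 targets rose at 0.5 h and at 1.5 h against untreated cells, with median log2 changes of 2.23 and 1.84, where 3.36% and 7.86% of all tested genes were called higher. SSA1, a cytosolic Hsp70, averaged 4370 ± 292 CPM at 0.5 h and 338 ± 43.4 CPM in untreated cells (SD, n = 3 each), which is 12.9-fold (adjusted p = 1.22e-11). HSP42, a small heat shock protein, had the largest p of the list at 0.5 h and was still 3.96-fold higher (adjusted p = 0.00072). At 3 h 21 of 22 rose against untreated cells and 19 of 22 against DMSO, beside 19.6% and 5.07% of all tested genes, with medians of 1.35 and 1.08, and 0 fell in either comparison by edgeR or by DESeq2. Without replicate 3 of 5-Ph-IAA the counts were 19 and 18. CUR1, which sorts misfolded proteins in the cell, was 3.26-fold higher than in DMSO (adjusted p = 1.6e-07), and HSP60, the mitochondrial chaperonin, had the largest p there with a log2 change of 0.14 (adjusted p = 0.79). In DMSO against untreated cells 9 of 22 rose and 0 fell by edgeR, beside 17.6% of all tested genes called higher, with a median of 0.35. DESeq2 called 11 higher and 1 lower there, and without replicate 3 of DMSO edgeR called 8 higher and 2 lower. The mRNA of the factor and those of its targets thus differed in size of change at 0.5 h, at 0.06 for HSF1 and between 1.41 and 3.91 for the targets.

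**Figure D2:**
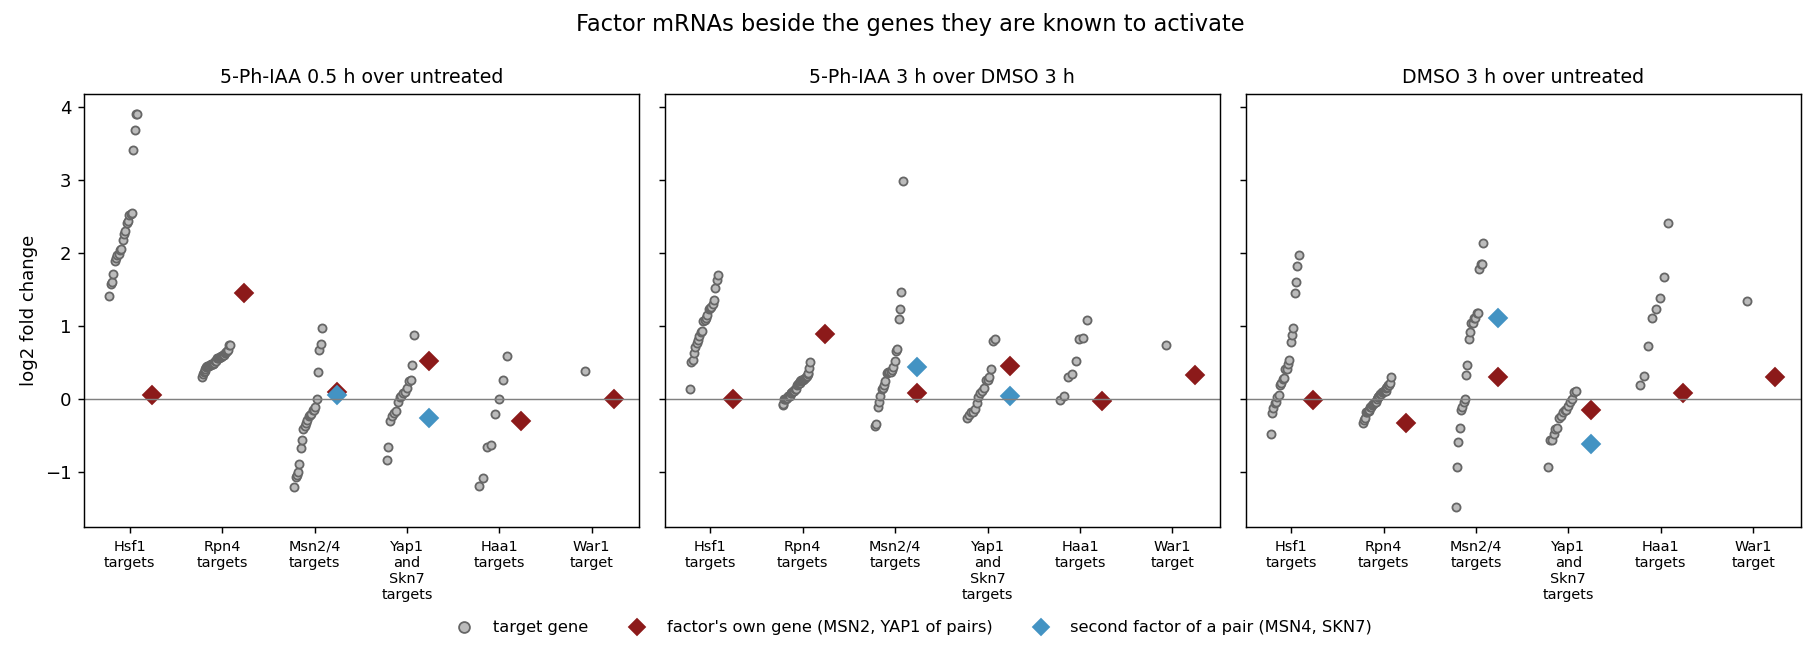
Log2 fold changes of listed target genes (grey circles, sorted within each list) and of the genes for the factors themselves (diamonds, with MSN4 and SKN7 in blue) for 5-Ph-IAA at 0.5 h over untreated, 5-Ph-IAA at 3 h over DMSO and DMSO over untreated. At 0.5 h the Hsf1 targets lie between 1.41 and 3.91 while HSF1 lies at 0.06, and the Rpn4 targets lie between 0.30 and 0.74 while RPN4 lies at 1.45.

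MSN4 and its paralog MSN2 encode zinc finger activators of the general stress response, which protein kinase A keeps out of the nucleus in growing cells. MSN4 had 57.0, 55.8 and 45.1 CPM in untreated cells, 59.7, 58.1 and 46.5 CPM at 0.5 h of 5-Ph-IAA, 67.6, 76.2 and 80.3 CPM at 1.5 h, 218, 151 and 95.4 CPM at 3 h, and 118, 123 and 100 CPM in DMSO. Both 3 h groups were above the 3 earlier groups, and within 3 h the low library of 5-Ph-IAA, replicate 3, was below all of DMSO. MSN4 was 2.93 times the untreated level at 3 h of 5-Ph-IAA (log2 1.55 ± 0.22, adjusted p = 3.86e-05) and 2.17 times in DMSO (log2 1.12 ± 0.22, adjusted p = 0.000807). At 3 h it was also 1.05 ± 0.22 higher than at 1.5 h on the log2 scale (adjusted p = 0.00453). The excess of 5-Ph-IAA over DMSO was 0.44 ± 0.21 and did not pass (adjusted p = 0.244), while without replicate 3 of 5-Ph-IAA it was 0.70 and passed (adjusted p = 0.0112). That library is the one with the lowest mitochondrial share of its group. Its correlation was 0.984 with replicate 3 of DMSO and 0.976 to 0.982 with the libraries at 1.5 h of 5-Ph-IAA. The part of this in the MSN4 value was not tested.

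MSN2 varied less. It ranged between 51.6 and 55.0 CPM in untreated cells, 50.1 and 64 CPM at 0.5 h of 5-Ph-IAA, 49.8 and 60.4 CPM at 1.5 h, 64.3 and 76.3 CPM at 3 h, and 52.9 and 79.8 CPM in DMSO. At 3 h of 5-Ph-IAA it was 1.3 times the untreated level (log2 0.38 ± 0.14, adjusted p = 0.0433), but this did not pass without replicate 1, 2 or 3 of the untreated cells or without replicate 2 or 3 of 5-Ph-IAA (adjusted p between 0.0625 and 0.0936). In DMSO the change was 0.30 ± 0.14 and did not pass (adjusted p = 0.0991). It passed in 2 of 14 settings, without replicate 1 of DMSO (0.44, adjusted p = 0.0186) and with total counts alone (0.52, adjusted p = 0.0193). For MSN2 the 95% interval of 5-Ph-IAA against DMSO was -0.22 to 0.37.

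Among 22 listed targets of Msn2 and Msn4, 1 rose and 4 fell at 0.5 h against untreated cells, where 6.15% of all tested genes were called, with a median log2 change of -0.25. With a library left out 0 to 3 rose and 1 to 4 fell, and 1 fell without replicate 1 or 2 of the untreated cells or without replicate 2 or 3 at 0.5 h. SPI1, a cell wall protein, averaged 13.6 ± 0.822 CPM at 0.5 h and 26.9 ± 1.60 CPM in untreated cells (SD, n = 3 each; adjusted p = 0.00457), while GLK1, glucokinase, had a log2 change of 0.00 (adjusted p = 0.999). At 3 h of 5-Ph-IAA 17 rose and 0 fell against untreated cells, with a median of 1.25, and in DMSO 12 rose and 2 fell, with a median of 0.87, where 19.6% and 17.6% of all tested genes were called higher. These comparisons share the untreated libraries. With 5-Ph-IAA against DMSO at 3 h 3 rose and 0 fell, beside 5.07% of all tested genes called higher, with a median of 0.38. The count was 5 with the 3 h libraries as pairs (a replicate block) and 2 without replicate 1 of DMSO. HSP12, a small membrane-binding stress protein, averaged 1900 ± 95.2 CPM with 5-Ph-IAA and 239 ± 113 CPM in DMSO (SD, n = 3 each), which is 7.97-fold (adjusted p = 4.14e-06). Untreated cells averaged 668 ± 127 CPM of HSP12, so that it was 1.51 higher than in untreated cells with 5-Ph-IAA (adjusted p = 0.000222) and 1.48 lower in DMSO (adjusted p = 0.000351) on the log2 scale. The other two were CTT1, the cytosolic catalase, at 1.47 and NQM1, a transaldolase, at 1.23, both named after their values were seen, and GLK1 again had the largest p (-0.04, adjusted p = 0.939).

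HAA1 encodes the activator of the response to acetic and other weak acids. It ranged between 86.1 and 112 CPM in untreated cells, 73.1 and 101 CPM at 0.5 h of 5-Ph-IAA, 76.7 and 84.3 CPM at 1.5 h, 93.1 and 114 CPM at 3 h, and 93.5 and 116 CPM in DMSO. It passed in 0 of the 7 comparisons, and for 5-Ph-IAA at 3 h against DMSO the log2 change was -0.02 with a 95% interval of -0.31 to 0.28. By edgeR, 2 of the 7 had an unadjusted p under 0.05, and DESeq2 called 1, for 3 h against 1.5 h. The largest step was that between 1.5 h and 3 h, at 0.41 ± 0.14 (adjusted p = 0.0632), with no overlap between both groups of libraries. This step passed in 4 of 14 settings, among them total counts alone (0.48, adjusted p = 0.0434) and without replicate 1 at 3 h (0.49, adjusted p = 0.0491). Of 8 listed Haa1 targets, 1 rose and 4 fell at 0.5 h against untreated cells, and 0 or 1 rose and 1 to 3 fell with any library left out, where 6.15% of all tested genes were called with all libraries. For 5-Ph-IAA at 3 h against DMSO 4 rose and 0 fell, beside 5.07% of all tested genes called higher, with a median of 0.43, and the count was 2 without replicate 1 of DMSO and 1 with only the compared groups. YGP1, a secreted glycoprotein, averaged 157 ± 1.25 CPM at 0.5 h and 247 ± 26.6 CPM in untreated cells (SD, n = 3 each; adjusted p = 0.00313), while PHM8, a nucleotide phosphatase, had a log2 change of 0.00 (adjusted p = 0.999). YRO2, a plasma membrane protein, was 0.82 higher than in DMSO on the log2 scale at 3 h (adjusted p = 0.00827), and YGP1 had -0.01 there (adjusted p = 0.971). All 8 targets rose between 1.5 h and 3 h, beside 8.9% of all tested genes, with a median of 1.29, and 7 of 8 rose in DMSO against untreated cells, beside 17.6%, with a median of 1.17.

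WAR1 encodes the activator of the weak acid transporter gene PDR12. Its levels were 43.8, 36.5 and 35.5 CPM in untreated cells, 33.7, 42.5 and 40.4 CPM at 0.5 h of 5-Ph-IAA, 45.1, 43.8 and 44.9 CPM at 1.5 h, 54.5, 63.9 and 61.8 CPM at 3 h, and 40.1, 51.7 and 51.1 CPM in DMSO. The 3 h libraries of 5-Ph-IAA were above all 12 others. At 3 h WAR1 was 1.55 times the untreated level (log2 0.64 ± 0.13, adjusted p = 0.00113) and 0.43 ± 0.13 above 1.5 h on the log2 scale (adjusted p = 0.0367), and the step did not pass without replicate 1, 2 or 3 at 1.5 h or without replicate 2 or 3 at 3 h (adjusted p between 0.075 and 0.106). The difference from DMSO, 0.33 ± 0.13, did not pass (adjusted p = 0.139), nor did that of DMSO from untreated cells, 0.31 ± 0.13 (adjusted p = 0.0757). DMSO against untreated cells passed without replicate 1 of DMSO (0.41, adjusted p = 0.0238) and without replicate 1 of the untreated cells (0.41, adjusted p = 0.0421). With total counts alone it passed too (0.51, adjusted p = 0.0145). PDR12 averaged 202 ± 16.7 CPM with 5-Ph-IAA at 3 h and 120 ± 14.7 CPM in DMSO (SD, n = 3 each), a log2 change of 0.75 (adjusted p = 0.00221). At 0.5 h against untreated cells PDR12 had 0.39 and did not pass (adjusted p = 0.118). PDR12 was also called higher in DMSO than in untreated cells, by 1.24 to 1.49 on the log2 scale with any library left out. That rise without the compound was larger than the excess of 0.75 over DMSO. With 5-Ph-IAA it was called 0.81 higher at 1.5 h and 2.09 higher at 3 h than in untreated cells. These comparisons share the untreated libraries.

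STP4 encodes a zinc finger protein related to Stp1 and Stp2, the activators of amino acid permease genes, and its own targets are less well known. It had the widest range of the set. Its levels were 31.7, 58.3 and 44.9 CPM in untreated cells, 31.6, 43.9 and 28.9 CPM at 0.5 h of 5-Ph-IAA, 111, 134 and 111 CPM at 1.5 h, 335, 349 and 344 CPM at 3 h, and 161, 188 and 224 CPM in DMSO. Untreated and 0.5 h libraries overlapped, and each of 1.5 h, DMSO and 3 h of 5-Ph-IAA stood clear of the group below it. The log2 change against untreated cells was -0.37 ± 0.20 at 0.5 h (adjusted p = 0.342), 1.39 ± 0.20 at 1.5 h (adjusted p = 0.00022) and 2.93 ± 0.21 at 3 h, which is 7.61-fold (adjusted p = 4.96e-08). In DMSO it was 2.09 ± 0.20 against untreated cells, which is 4.24-fold (adjusted p = 2.03e-06). STP4 also rose between 0.5 h and 1.5 h (1.76, adjusted p = 0.000373) and between 1.5 h and 3 h (1.54, adjusted p = 0.000119). At 3 h it was 1.79 times higher with 5-Ph-IAA than in DMSO (log2 0.84 ± 0.19, adjusted p = 0.0104), which held in 14 of 15 settings and did not pass without replicate 1 of DMSO (0.73, adjusted p = 0.0634). Without replicate 2 or 3 of 5-Ph-IAA the difference was 0.84 in both cases.

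CIN5, also called YAP4, encodes a bZIP factor of the Yap family known for salt and osmotic tolerance. It had 76.2, 82.6 and 66.5 CPM in untreated cells, 41.8, 50.5 and 35.2 CPM at 0.5 h of 5-Ph-IAA, 31.6, 38.3 and 30.4 CPM at 1.5 h, 63.7, 42.6 and 29.2 CPM at 3 h, and 56.4, 58.2 and 43.4 CPM in DMSO. All untreated libraries were above all 12 others, and the 3 h libraries of 5-Ph-IAA spanned those of both earlier times of the compound and of DMSO. Against untreated cells CIN5 fell by 0.82 at 0.5 h (SE 0.22, adjusted p = 0.0346), by 1.17 at 1.5 h (SE 0.22, adjusted p = 0.00218) and by 0.75 at 3 h (SE 0.22, adjusted p = 0.0141) on the log2 scale. The fall at 1.5 h passed in all 14 settings. The fall at 0.5 h did not pass in 5 of the 6 fits that left out a library, namely replicates 1, 2 or 3 of the untreated cells and replicates 1 or 3 at 0.5 h (adjusted p between 0.0644 and 0.147). At 3 h it did not pass without replicate 2 of the untreated cells (-0.65, adjusted p = 0.0556) or without replicate 3 of 5-Ph-IAA (-0.47, adjusted p = 0.0671). Its change with 5-Ph-IAA against DMSO at 3 h was -0.23 ± 0.22 (adjusted p = 0.598), and without replicate 3 of 5-Ph-IAA it was 0.04. Without that replicate the step between 1.5 h and 3 h was 0.70 (adjusted p = 0.0192), while with all libraries it was 0.42 and did not pass (adjusted p = 0.226). In DMSO the change against untreated cells was -0.51 ± 0.22 and did not pass (adjusted p = 0.0747). It passed in 2 of 14 settings, with only the compared groups (-0.49, adjusted p = 0.0293) and with a replicate block (-0.52, adjusted p = 0.0205). The gene beyond the end of CIN5 is STI1, a co-chaperone gene and listed Hsf1 target. Its end lies 710 bases from that of CIN5, so that transcription of both runs towards the same gap. STI1 was 2.53 higher at 0.5 h than in untreated cells on the log2 scale, and a link between both genes was not tested.

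**Figure D3:**
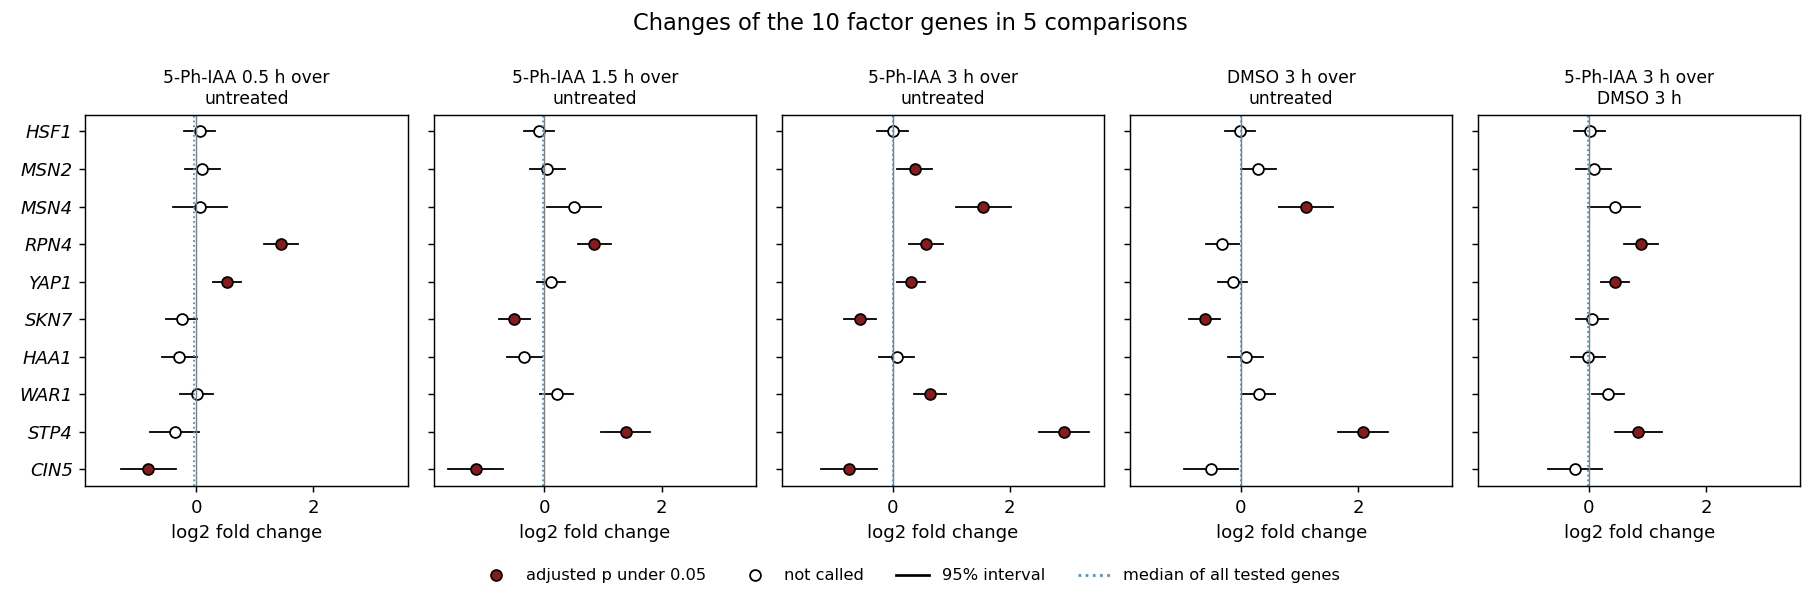
Log2 fold changes of the 10 genes in 5 comparisons, with 95% intervals as horizontal lines, filled points for an adjusted p under 0.05, open points for the others, and a dotted line at the median of all tested genes. For 5-Ph-IAA at 3 h over DMSO the filled points are RPN4 at 0.89, STP4 at 0.84 and YAP1 at 0.45, and 4 of the 5 comparisons use the same untreated libraries.

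Counted by comparison, 3 of the 10 genes were called higher and 0 lower for 5-Ph-IAA at 3 h against DMSO, where 7.94% of all tested genes were called, 5.07% higher and 2.87% lower. The count was 2 without replicate 2 of 5-Ph-IAA, where YAP1 did not pass, and 4 without replicate 3, where MSN4 also passed. At 0.5 h against untreated cells 2 genes were higher and 1 was lower, where 6.15% of all tested genes were called, 3.36% higher and 2.78% lower. At 1.5 h 2 were higher and 2 were lower, beside 17.6% of all tested genes (7.86% higher and 9.74% lower). At 3 h 6 were higher and 2 were lower, beside 39.3% of all tested genes (19.6% higher and 19.7% lower), and the count was 6 without replicate 2 of 5-Ph-IAA and 6 without replicate 3. In DMSO against untreated cells 2 were higher and 1 was lower, beside 36.1% of all tested genes (17.6% higher and 18.5% lower). For 1.5 h against 0.5 h 1 gene was higher and 1 was lower, beside 1.14% of all tested genes (0.923% higher and 0.214% lower). For 3 h against 1.5 h 3 were higher and 0 were lower, beside 15.8% (8.9% higher and 6.94% lower). The libraries of the compared groups did not overlap for 4 of the 10 genes between 5-Ph-IAA and DMSO (20% of all tested genes). Against untreated cells they did not overlap for 3 at 0.5 h (29%), 8 at 1.5 h (41.1%), 8 at 3 h (46.2%) and 4 in DMSO (45.8%), and between successive times for 6 at 1.5 h (25.1%) and 6 at 3 h (32.2%). The median log2 change of the 10 genes was 0.20 for 5-Ph-IAA at 3 h against DMSO, beside -0.02 over all tested genes, and 0.04 at 0.5 h against untreated cells, beside -0.03. Since the genes were chosen with results known, nothing is read from these counts about the set. STP4 passed in 6 of the 7 comparisons, RPN4 in 5, MSN4, YAP1, SKN7 and CIN5 in 3 each, WAR1 in 2, MSN2 in 1, and HSF1 and HAA1 in 0.

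Levels were compared between genes as CPM per kb of coding length. In untreated cells YAP1 stood highest at 97.0 ± 4.35 CPM per kb, then CIN5 at 84.6 ± 9.10 and RPN4 at 74.0 ± 11.9 (SD, n = 3 each). These neighbours overlapped in their libraries, and RPN4 stood clear of the next, HAA1, at 48.1 ± 6.29 CPM per kb. HSF1 at 19.1 ± 1.50 and WAR1 at 13.6 ± 1.59 CPM per kb were the lowest and did not overlap each other or MSN2 at 25.4 ± 0.906. The median of 5717 protein-coding genes was 43.9 CPM per kb in untreated cells. RPN4 was the highest of the set at 0.5 h, at 202 ± 2.92 CPM per kb. At 3 h STP4 was the highest, at 233 ± 4.76 CPM per kb with 5-Ph-IAA and 130 ± 21.4 CPM per kb in DMSO (SD, n = 3 each), having stood sixth in untreated cells at 30.5 ± 9.02.

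**Figure D4:**
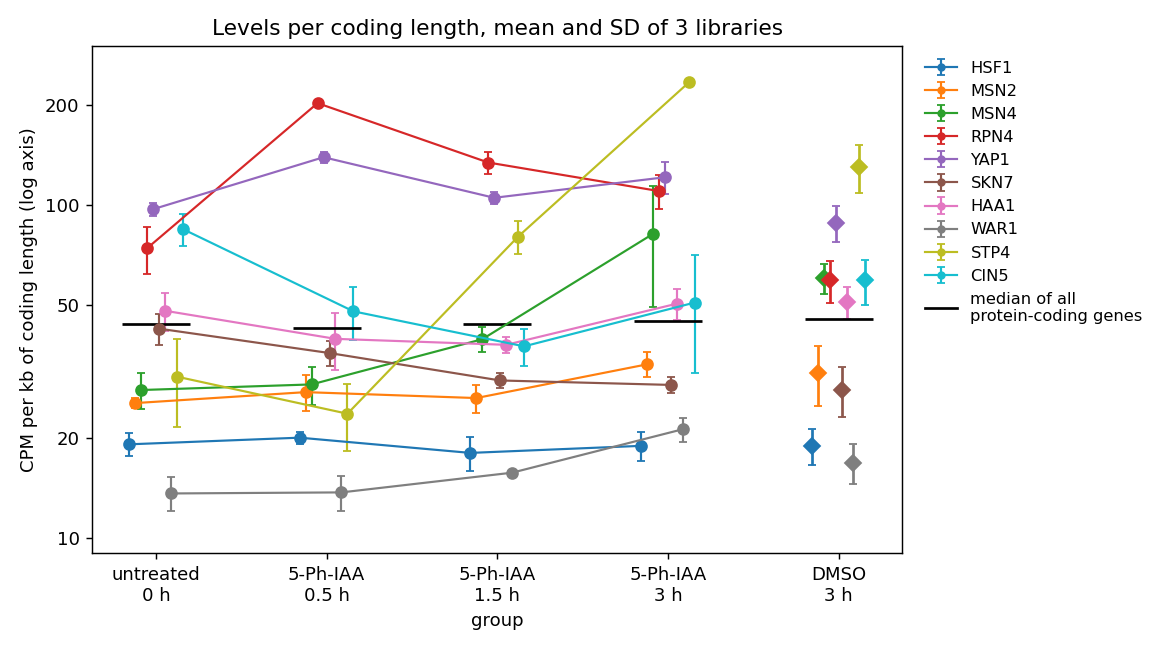
Mean level of each gene per kb of coding length with its SD (n = 3), on a log axis, by group, with short black bars at the median of 5717 protein-coding genes. HSF1 and WAR1 are lowest in every group, RPN4 is highest at 0.5 h and 1.5 h of 5-Ph-IAA, and STP4 is highest in both 3 h groups.

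The genes whose pattern was most like that of each factor were those with the smallest root mean square difference of log2 CPM over the 15 libraries, each gene centred on its own mean, among 5216 others with a mean of at least 10 CPM. For RPN4 they were SGT2 at 0.184, TAH11 at 0.186 and HCH1 at 0.196, where RPN4 itself departed from its mean by 0.641. HCH1 is a listed Hsf1 target. For MSN4 they were TOH1 at 0.146, CYB2 at 0.177 and EMA17 at 0.193, where MSN4 departed by 0.635. For STP4 they were CIP1 at 0.253, PIC2 at 0.257 and TPO2 at 0.263, where STP4 departed by 1.27, and TPO2 is a listed Haa1 target. RAD54, TOF2 and PRE2, a proteasome gene of the Rpn4 list, were nearest to YAP1, at 0.111 to 0.131. For SKN7 they were KAP104, RAT1 and VBA4 at 0.11 to 0.115. For CIN5 they were MLO50, SRG1 and MMS22 at 0.274 to 0.284, where CIN5 departed by 0.467. These were the largest differences of the 10 sets, and differences are not scaled to how much a gene varied. MSN2 was most like YLR001C, GPI18 and SKO1 at 0.109 to 0.111, WAR1 most like GPI18, YCL049C and RAV1 at 0.120 to 0.131, and HAA1 most like SCM3, BNA5 and EAR1 at 0.107 to 0.140. HSF1 lay nearest to PAH1, YTA6 and ATG11 at 0.107 to 0.108, beside a departure of 0.125 from its own mean. These likenesses describe levels in the same 15 libraries and carry no test.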

How the data were processed

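RNA of 15 libraries in 5 groups of 3 was measured. The deposited table holds the authors' raw counts of reads per gene, and the tools named in the submitters' processing notes are STAR 2.7.0, DESeq2 1.34.0 and FastQC 0.11.5, on build R64. How reads were counted, and whether strand was used, is not given in the sources used here, so reads of overlapping or antisense transcripts could be shared.

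Counts were tested with edgeR 4.0.16 in R 4.3.3, with limma 3.58.1. The fit used TMM scaling, filterByExpr, 1 mean per group over all 15 libraries and the two-sided quasi-likelihood test, with p adjusted by Benjamini-Hochberg over 6069 genes in each of 7 comparisons and a threshold of 0.05. The biological coefficient of variation was 17%, and SEs and 95% intervals came from the F statistic. TMM factors also scaled CPM, and 1 was the prior count of log2 CPM. Of 7127 table genes, 6047 matched the R64 annotation by locus tag and 41 by symbol, while 1039 did not match. On simulated data for 5-Ph-IAA against DMSO (6021 genes) 43.3%, 92.5% and 100% of 1.5-fold, 2-fold and 4-fold changes were recovered, with 11 of 168 calls false.

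The 10 genes, the lists of targets, regulators and relatives, the tests and the alternatives were chosen with earlier results of these data known. From each list the genes with the smallest and the largest adjusted p were named in 2 comparisons, 5-Ph-IAA at 3 h against DMSO and 0.5 h against untreated cells. Deviations from the group means correlated at 0.196, 0.302 and 0.586 between same-numbered 3 h libraries of 5-Ph-IAA and DMSO, and each of the 6 was closest to its own number. An added fit therefore took them as pairs, on the strength of this check, since the labels do not state a pairing. Alternatives were scaling by RLE size factors or by total counts alone, DESeq2 1.42.0, robust estimation, a replicate block, fits of only the compared groups, a filter at a mean of 10 CPM or none, and leaving out each library. The same settings were applied to the lists after their values were seen. Figures were drawn with matplotlib 3.10.9 (Python 3.11.15).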

Additional observations from a re-analysis of the deposited data

How the results depend on the processing

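Of 990 log2 changes of the 10 genes under the alternatives, 883 kept their direction and their side of the threshold, 40 no longer passed, 18 passed newly and 49 changed sign. With all libraries, the number of the 10 genes called moved by more than 1.5 times with total counts alone for 1.5 h against 0.5 h (1, instead of 2) and for DMSO against untreated cells (5, instead of 3), and with the replicate block for 1.5 h against 0.5 h (1). In the other settings with all libraries it moved by at most 1 gene. With a library left out, it was 1 to 3 for 0.5 h against untreated cells (lowest without replicate 1 of the untreated cells), 1 for 1.5 h against 0.5 h in every case, 1 to 4 for 5-Ph-IAA at 3 h against DMSO (lowest without replicate 1 of DMSO), 5 to 7 for 3 h against untreated cells (lowest without replicate 2 of the untreated cells) and 3 to 5 for DMSO against untreated cells (highest without replicate 1 of DMSO). The causes were not tested.

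Sign changes were all in changes that did not pass. HSF1 had -0.06 with total counts and -0.01 with a mean of at least 10 CPM for 5-Ph-IAA at 3 h against DMSO. For 3 h against untreated cells it had 0.01 with DESeq2, RLE size factors and only the compared groups, 0.13 with total counts and 0.02 with no filter. For DMSO against untreated cells it had 0.20 with total counts, 0.01 with no filter and with a mean of at least 10 CPM, and 0.02 with only the compared groups. With total counts alone HAA1 and MSN2 had 0.06 for 1.5 h against 0.5 h, SKN7 had 0.02 for 3 h against 1.5 h and 0.00 for 5-Ph-IAA at 3 h against DMSO, WAR1 had -0.03 for 0.5 h against untreated cells, and YAP1 had 0.07 for DMSO against untreated cells.

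With a library left out, changes that turned sign ran as follows. For 5-Ph-IAA at 3 h against DMSO they were -0.60 to 0.04 for CIN5, -0.10 to 0.07 for HAA1, -0.09 to 0.09 for HSF1, -0.06 to 0.23 for MSN2 and -0.05 to 0.20 for SKN7. For 0.5 h against untreated cells they were 0.00 to 0.10 for HSF1, -0.03 to 0.17 for MSN4 and -0.06 to 0.11 for WAR1, and for 1.5 h against untreated cells -0.15 to 0.03 for HSF1. For 3 h against untreated cells they were -0.03 to 0.19 for HAA1 and -0.10 to 0.07 for HSF1, and for DMSO against untreated cells -0.01 to 0.20 for HAA1 and -0.09 to 0.08 for HSF1. For 1.5 h against 0.5 h they were -0.12 to 0.12 for HAA1 and -0.14 to 0.03 for MSN2, and for 3 h against 1.5 h -0.01 to 0.17 for HSF1 and -0.08 to 0.01 for SKN7.

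The replicate block over all 15 libraries changed 4 calls. RPN4 no longer passed for 1.5 h against 0.5 h (-0.60, adjusted p = 0.0547), while CIN5 passed for DMSO against untreated cells (-0.52, adjusted p = 0.0205) and HAA1 for 1.5 h against untreated cells (-0.33, adjusted p = 0.0373) and for 3 h against 1.5 h (0.40, adjusted p = 0.0168). The added block within the 3 h libraries, chosen after seeing the data, changed no call of the 10 genes for 5-Ph-IAA at 3 h against DMSO. In the other comparisons at least 1 correlation between same-numbered libraries was under 0.1, so their libraries were not treated as pairs.

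Over all tested genes, 5-Ph-IAA at 3 h against DMSO called 482 genes, 151 with only the compared groups and 820 with the added block. At 0.5 h against untreated cells it was 373 and 568 with only the compared groups, for 1.5 h against 0.5 h it was 69, with 170 by DESeq2, 115 with total counts and 222 with only the compared groups, and for 3 h against 1.5 h it was 961 and 631 with only the compared groups. Leaving out a library gave 178 to 274 genes at 0.5 h against untreated cells, 23 to 42 for 1.5 h against 0.5 h, 577 to 851 for 1.5 h against untreated cells, 523 to 1287 for 3 h against 1.5 h, and 272 to 562 for 5-Ph-IAA at 3 h against DMSO. Changes of 1.5-fold were recovered in 43.3% of cases in the simulation for 5-Ph-IAA against DMSO, so a gene that did not pass may still have changed by that much.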

Other observations

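Of 19 listed regulators of these factors, 0 rose and 0 fell for 5-Ph-IAA at 3 h against DMSO by the quasi-likelihood test of edgeR. Of all tested genes 7.94% were called there, and the median log2 change of the regulators was -0.03. YAK1, a kinase that acts on Msn2 and Hsf1, had the smallest p there, at -0.52 (adjusted p = 0.129), and UBR2, the ubiquitin ligase for Rpn4, the largest, at -0.03 (adjusted p = 0.964). Of the 19, 2 had an unadjusted p under 0.05, DESeq2 called 0, and edgeR called 1 without replicate 3 of DMSO. Against untreated cells 4 of the 19 rose and 1 fell at 3 h of 5-Ph-IAA, and 5 rose and 2 fell in DMSO, where 39.3% and 36.1% of all tested genes were called, so that the regulators' counts show nothing particular to them. Without replicate 2 of the untreated cells 3 rose and 1 fell in DMSO. YAK1 was 1.16 higher with 5-Ph-IAA and 1.68 higher in DMSO on the log2 scale. Both comparisons share the untreated libraries. At 0.5 h against untreated cells 0 regulators rose and 0 fell by edgeR, where 6.15% of all tested genes were called. Among the regulators 0 had an unadjusted p under 0.05 and DESeq2 called 0. UBR2 had the smallest p there (0.41, adjusted p = 0.377) and YBP1, a partner of Yap1, the largest (-0.02, adjusted p = 0.966).

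Of 14 relatives of the factors, 1 rose and 0 fell for 5-Ph-IAA at 3 h against DMSO, beside 5.07% of all tested genes called higher. It was COM2, a zinc finger gene related to MSN2 and MSN4, which averaged 302 ± 10.1 CPM with 5-Ph-IAA and 215 ± 22.7 CPM in DMSO (SD, n = 3 each; log2 0.49, adjusted p = 0.0234). COM2 did not pass without replicate 1 of 5-Ph-IAA or without replicate 1 or 2 of DMSO (adjusted p between 0.0503 and 0.112). The count of relatives was 2 by DESeq2, 2 without replicate 3 of 5-Ph-IAA and 2 with the 3 h libraries as pairs (a replicate block). STP3, the closest relative of STP4, had 0.41 there and did not pass (adjusted p = 0.246), and it was 1.07 higher with 5-Ph-IAA and 0.66 higher in DMSO than in untreated cells, named after its values were seen. SFL1, a repressor related to HSF1, had 0.00 (adjusted p = 0.999). At 0.5 h against untreated cells 0 relatives rose and 0 fell by edgeR, where 6.15% of all tested genes were called. Among the relatives 1 had an unadjusted p under 0.05 and DESeq2 called 0. YAP7, another Yap family gene, had the smallest p there (-0.39, adjusted p = 0.211) and SFL1 the largest (-0.03, adjusted p = 0.951).

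Among 11 other stress factor genes, 1 rose at 0.5 h against untreated cells, beside 3.36% of all tested genes called higher. It was PDR1, the activator of drug transporter genes, which averaged 87.7 ± 6.30 CPM at 0.5 h and 65.9 ± 3.46 CPM in untreated cells (SD, n = 3 each; log2 0.41, adjusted p = 0.0167), and the count was 0 without replicate 2 or 3 of the untreated cells or of 0.5 h. XBP1, a repressor induced by stress, had -0.08 there (adjusted p = 0.876). For 5-Ph-IAA at 3 h against DMSO 0 rose and 0 fell by edgeR, where 7.94% of all tested genes were called. Of the 11, 1 had an unadjusted p under 0.05 and DESeq2 called 1. In both cases it was USV1, a zinc finger gene, at 0.77 (adjusted p = 0.0644 by edgeR), which passed without replicate 2 of DMSO (0.99, adjusted p = 0.0322). GIS1, another zinc finger gene, had -0.03 (adjusted p = 0.95).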
